A study of Mus musculus with 7 samples.

Results

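Cells with high MHC class II transcript, C1q transcript and few transcripts of resident macrophage genes were described in hearts of male C57BL6/J mice without infarction and 1, 3, 5 and 7 days after myocardial infarction. Members were chosen by measured values: a barcode needed 200 or more genes and no more than 10% of its UMIs (unique molecular identifiers, 1 per captured transcript) from mitochondrial genes, and had to hold at least 3 UMIs of C1qa, C1qb and C1qc together and at least 5 of H2-Aa. It also had to hold at most 2 UMIs of Lyve1, Folr2, Timd4 and Cbr2 together, at most 1 of Gpnmb, at most 1 of Cd209a and fewer than 3 of Cd79a. The rule found 694 members among 4763 kept CD45+ cells, with 145 in the steady state and 11, 72, 188 and 278 on days 1, 3, 5 and 7. All 7 libraries of the series held 21190 kept cells.

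The CD45+ libraries came from viable leukocytes. Cells reached by a CD45.2 antibody injected into the blood were left out of the sort. Tissue was the infarct, its border and the left ventricle next to it, or a matching piece of a heart with no infarct. Hearts of 5 mice were pooled for the steady state and for days 1, 3 and 5, and hearts of 3 mice for day 7, which gives 1 library and no replicate mice per time point. A neutrophil reduction step preceded sorting. A second experiment held CD11b+ heart cells of days 1 and 3 (5 mice each) and day 5 (3 mice) in 1 pool, marked by hashtag antibodies and stained with 10 surface antibodies. There the same rule found 313 cells of 4835, and 24, 106 and 144 of them carried the single hashtag of day 1, 3 and 5. P-values over these pooled libraries do not measure spread between mice. In comparisons of cell classes they measure how a difference varied between time points of the CD45+ libraries, or between hashtag days of 1 pool. Time points thus stood in for replicates there. The edgeR test of day 5 against day 3 over all members took its spread from other genes, not from each gene's own spread between experiments.

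MHC class II molecules present peptides from endocytosed protein to CD4+ T cells. H2-Aa with H2-Ab1 forms a surface dimer, and H2-Eb1 encodes another MHC II beta chain. Cd74 is the invariant chain that guards the groove of the dimer, and H2-DMa, H2-DMb1 and H2-DMb2 load the peptide. C1qa, C1qb and C1qc encode the complement component C1q, which tissue macrophages make in quantity. Macrophages that settle in the heart early in life carry Lyve1, Folr2, Timd4 and Cbr2, while MHC II-high cardiac macrophages without these markers are known to be replenished more by blood monocytes. Dendritic cells and B cells also carry MHC II.

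Of the genes of the rule, the C1q genes lie side by side, and H2-Aa lies among the other MHC II genes (mm10, GRCm38). H2-Aa spans 17:34282744-34287823 on the minus strand and H2-Ab1 17:34257689-34269419 on the plus strand, and C1qa spans 4:136895917-136898803 on the minus strand beside C1qb and C1qc. The 150 bases before the start of 3 MHC II genes and 2 C1q genes, from RefSeq on GRCm38.p6, are shown because H2-Aa and the C1q genes set the rule, and H2-Eb1 and H2-DMb1 read out MHC II outside it. Capitals mark ATTGG or its reverse complement CCAAT, the Y box core found in MHC II promoters. The windows are chr17:34287824-34287973 for H2-Aa (minus strand), chr17:34305717-34305866 for H2-Eb1 (plus), chr17:34153041-34153190 for H2-DMb1 (plus), chr4:136886201-136886350 for C1qb (minus) and chr4:136892915-136893064 for C1qc (minus), each read 5′ to 3′.
H2-Aa: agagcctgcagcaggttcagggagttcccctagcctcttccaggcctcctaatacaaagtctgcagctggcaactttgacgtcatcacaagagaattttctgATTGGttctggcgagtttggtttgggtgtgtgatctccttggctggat
H2-Eb1: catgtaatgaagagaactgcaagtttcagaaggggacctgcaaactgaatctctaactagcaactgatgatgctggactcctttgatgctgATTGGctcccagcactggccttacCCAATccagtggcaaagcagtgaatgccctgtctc
H2-DMb1: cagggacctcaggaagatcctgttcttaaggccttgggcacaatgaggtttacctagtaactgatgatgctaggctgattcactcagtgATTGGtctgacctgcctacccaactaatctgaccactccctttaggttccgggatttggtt
C1qb: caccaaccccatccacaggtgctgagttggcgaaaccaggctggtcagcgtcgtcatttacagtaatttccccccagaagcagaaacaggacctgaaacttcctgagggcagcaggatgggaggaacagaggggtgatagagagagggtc
C1qc: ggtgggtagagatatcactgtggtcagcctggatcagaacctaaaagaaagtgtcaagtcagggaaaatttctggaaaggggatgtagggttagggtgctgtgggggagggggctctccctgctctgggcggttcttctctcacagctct
The core was found once before H2-Aa and H2-DMb1, 2 times before H2-Eb1 and not before the C1q genes. Searched on both strands, it was present in 37.4% of 32851 promoter windows of 300 bases, so its presence alone sets no gene apart. The longer form CTGATTGG or CCAATCAG stood before H2-Aa and H2-Eb1 and was present in 4.10% of windows. H2-Ab1 and C1qa were not in the table of promoters.

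Members were common in the steady state, rare on day 1 and common again by day 5. In the steady state they made up 22.5% of kept cells, and after infarction 2.09% (day 1), 8.49% (day 3), 19.8% (day 5) and 15.5% (day 7). These denominators include neutrophils, monocytes and B cells, whose numbers changed between the libraries. Among cells that passed the C1q cut alone, the share was 22.6% in the steady state (95% exact binomial interval 19.4 to 26.0%), 19.0% for day 1 (9.87 to 31.4%), 16.3% for day 3 (12.9 to 20.02%), 23.8% for day 5 (20.8 to 26.9%) and 18.8% for day 7 (16.9 to 20.9%). The intervals cover counting error only. Day 3 and day 5 had intervals that did not overlap, and those of the steady state, day 1 and day 7 overlapped. With every cell thinned to 2000 UMIs the shares were 42.0%, 10.0%, 10.98%, 22.3% and 20.8% in time order. The UMI cuts were not lowered with depth, so thinning also moved cells between classes. In the steady state, cells with at least 3 resident-marker UMIs and the other cuts numbered 435 before and 246 after thinning, and members 145 and 246. The thinned shares thus cannot tell whether libraries differ more at equal depth. With no resident UMI allowed the steady-state share was 6.22%. Scrublet, a doublet caller, marked 6, 5, 2, 3 and 2 of all kept cells in time order, which were kept. With them left out, members numbered 145, 10, 72, 187 and 278. Of 4942 barcodes, 13 sequences occurred in more than 1 CD45+ library, none as a member in both. Total depth was 3655070 to 11528452 UMIs per CD45+ library, and the median UMIs per kept cell ran from 3595 on day 7 to 9463.5 on day 3.

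**Figure D1:**
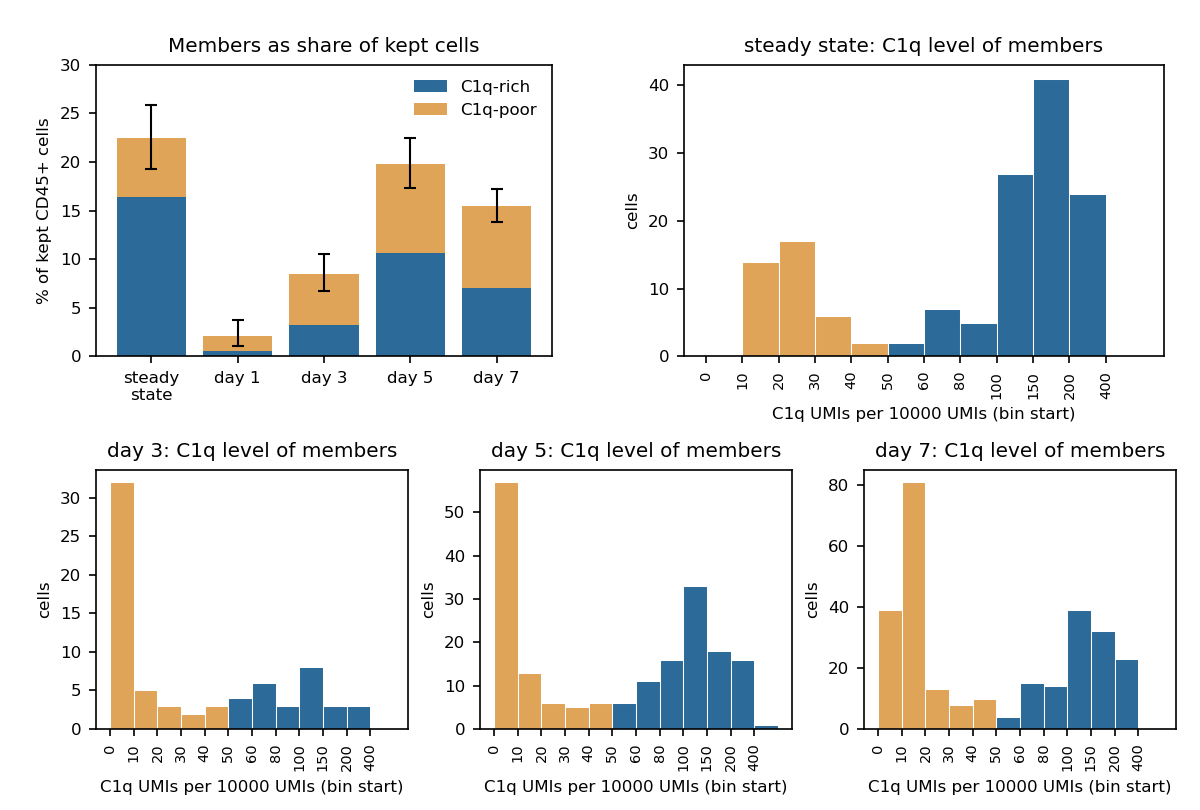
Top left, members as a percentage of kept cells in each CD45+ library, split into C1q-rich and C1q-poor cells, with the exact 95% binomial interval of the total. The other panels count members by C1q UMIs per 10000 UMIs, in bins of unequal width named by their start. Members of the steady state fell into a low and a high C1q group. On days 3, 5 and 7 the fullest bin lay below 20, and the cells above it spread widely with no clear gap. Between 40 and 60 lay 4 to 14 cells per library shown.

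The label of macrophage held more clearly for a part of the members. C1q UMIs per 10000 UMIs of a cell fell into 2 groups in the steady state and spread without a clear gap on days 3, 5 and 7. A line at 50, drawn after the values were seen, left 364 C1q-rich and 330 C1q-poor members. C1q-rich members numbered 106 in the steady state and 3, 27, 101 and 127 on days 1, 3, 5 and 7, or 16.4%, 0.569%, 3.18%, 10.7% and 7.08% of kept cells. C1q-poor members numbered 39, 8, 45, 87 and 151 in the same order. Between 40 and 60 per 10000 lay 4, 3, 7, 12 and 14 members.

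At this depth the C1q cut of 3 UMIs lay below the median C1q count of lymphocyte barcodes in 2 libraries. The source of C1q UMIs in such barcodes was not tested. In the steady state 643 of 645 kept cells passed the cut. There 18 barcodes with at least 3 UMIs of Cd3e, Cd3d and Cd3g together (T lineage) had a median of 11 C1q UMIs. That is 22.0 per 10000, against 22.6 per 10000 in C1q-poor members. These T lineage barcodes also had a median of 5 H2-Aa UMIs, and 61.1% of them reached the H2-Aa cut, while C1q-poor steady-state members had a median of 6. On day 7, 74.0% of 838 B lineage barcodes passed the C1q cut, with a median of 12.4 per 10000, against 12.9 in C1q-poor members. The H2-Aa level of C1q-poor members, which the rule set at 5 UMIs or more, is given beside that of T lineage barcodes as a description. It was 66.4 against 1.08 UMIs per 10000 on day 3 (4 T lineage barcodes), 94.4 against 1.01 on day 5 (15 barcodes) and 68.0 against 13.2 on day 7 (89 barcodes). B lineage barcodes, which make MHC II themselves, held 65.0 on day 7.

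C1q-rich members carried more macrophage marker transcript than C1q-poor members, with the widest gap in the steady state. C1q-poor members carried macrophage markers too, along with genes of several other cell types. Summed over 7 macrophage markers outside the rule (such as Csf1r, Adgre1 and Mertk), C1q-rich members reached 7250 CPM (UMIs of a gene scaled to an equal total for each class and library) in the steady state and 6118, 7964 and 6317 on days 3, 5 and 7. C1q-poor members reached 927, 4561, 6480 and 4063. Summed over 11 dendritic markers, C1q-poor members reached 402, 820, 1643 and 1359 and C1q-rich members 106, 519, 129 and 129. On day 3 the C1q-rich sum rested on 4 detected genes, with Ccr7, Fscn1 and Zbtb46 at 0. Fibroblast markers summed to 14966 CPM in C1q-poor steady-state members and to 200 in C1q-rich ones, and NK markers to 954 and 16.2. Cardiomyocyte markers went the other way in the steady state, with 758 in C1q-rich and 212 in C1q-poor members, and fibroblast markers on day 7 summed to 241 and 233. Neutrophil markers summed to 3471 in C1q-poor members of day 7 and to 205 in C1q-rich ones. For these reasons the members are named below by the rule, and values of the C1q-rich cells stand beside them.

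Of 2179 genes compared between the C1q-rich and C1q-poor members, 9 were at least 2-fold higher in C1q-rich cells and 18 at least 2-fold higher in C1q-poor cells in each of the 4 libraries with enough cells. The genes differ by construction where they track C1q, and the counts are given without a test. Apoe, a lipid carrier of macrophages, stood at 25730, 9903, 30770 and 32420 CPM in C1q-rich cells of the steady state and days 3, 5 and 7, against 7483, 3687, 11970 and 10250 in C1q-poor cells. Trem2, a lipid-sensing receptor, stood at 130, 298, 550 and 701 against 18.6, 157, 217 and 264. Cx3cr1, the fractalkine receptor, stood at 115, 99.4, 182 and 294 against 11.2, 41.2, 99.1 and 95.4. In the other direction Ccr7, which guides dendritic cells to lymph nodes, stood at 156, 200, 512 and 497 in C1q-poor cells and at 4.87, 0, 12.2 and 39.3 in C1q-rich cells. Plac8, a monocyte gene, stood at 164, 2361, 2032 and 1355 against 53.6, 1019, 718 and 178. These 5 genes were taken from those with the largest differences held in all 4 libraries, so their shared order follows from the choice.

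The resident-marker cut mattered most in the steady state. There 105 of 145 members held 1 or 2 UMIs of the 4 resident genes and 40 held none, and 94 cells lay just outside with 3 or 4. Mrc1, the mannose receptor that resident cells carry, stood at 129 CPM in members with 1 or 2 such UMIs, at 140 in those with none and at 210 in the cells just outside. T lineage barcodes of that library held 3.76 resident UMIs per 10000, above the 1.93 of C1q-rich members, whereas resident-type cells held 22.0. On day 7, 111 members held 1 or 2 such UMIs, 167 held none and 15 cells lay just outside. At the H2-Aa edge, 26 steady-state and 48 day 7 members had 5 or 6 UMIs.

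The MHC II genes outside the rule move with H2-Aa, which the rule required, so their levels in members are a description. They were lowest on day 1. Cd74 stood at 39500 CPM in the steady state and at 7615, 20090, 29490 and 18820 on days 1, 3, 5 and 7. H2-Ab1 stood at 12360, 2019, 7563, 9618 and 7215, and H2-Eb1 at 8974, 1450, 3949, 5013 and 4726. H2-DMb1, a chain of the peptide loader, stood at 832, 97, 711, 677 and 483. For all 4 genes the steady state was highest and day 1 lowest. Day 1 rests on 11 cells.

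Another 2 classes were cut from the same libraries for comparison. Resident-type cells passed the same C1q, Gpnmb, Cd209a and Cd79a cuts and held at least 3 resident-marker UMIs with any H2-Aa (625 cells, with 435, 10, 41, 48 and 91 in time order), and MHC II-low cells met the members' rule except for at most 4 H2-Aa UMIs (704 cells, with 38, 37, 239, 230 and 160). In resident-type cells Cd74 stood at 26290, 2164, 532, 7418 and 6325 CPM and H2-Ab1 at 8879, 168, 174, 2831 and 2150. The gap between members and resident-type cells was therefore small in the steady state, where H2-Ab1 differed by 0.48 log2, and large on day 3, where it differed by 5.43. In MHC II-low cells Cd74 stood at 3020, 952, 876, 1217 and 1600. In the CD11b+ pool Cd74 stood at 8228, 9369 and 12210 CPM in members of days 1, 3 and 5, at 113, 1117 and 1317 in resident-type cells and at 357, 332 and 249 in MHC II-low cells.

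**Figure D2:**
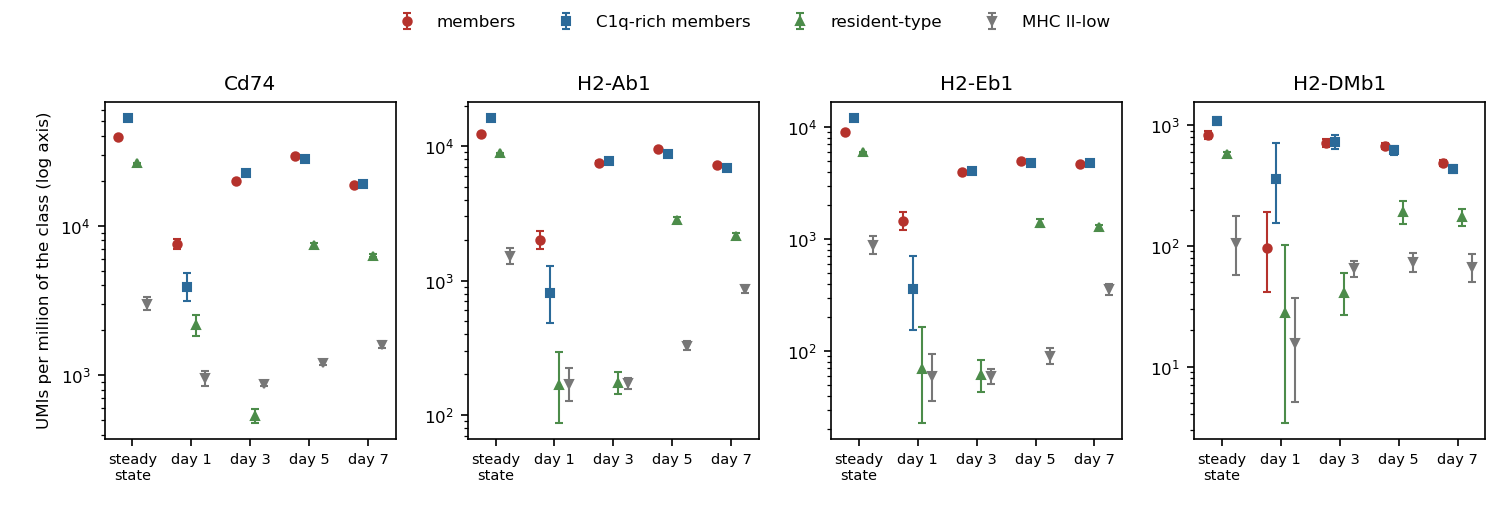
CPM of the class (log axis) for 4 MHC II genes in the 5 CD45+ libraries, with exact 95% Poisson intervals for counting error. Members and C1q-rich members lay close together on days 3, 5 and 7, and resident-type cells came closest to them in the steady state and were lowest against them on day 3.

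Between day 3 and day 5 macrophage genes rose and monocyte and glycolysis genes fell in sums over all members. In C1q-rich cells alone none of 7 macrophage and none of 10 monocyte genes was called, and 3 of 12 glycolysis genes fell. Day 5 against day 3 was the 1 time contrast with 2 sums of at least 20 cells per day, 1 from the CD45+ libraries and 1 from the pool. edgeR's quasi-likelihood test with Benjamini-Hochberg adjustment, with the experiment as a block, called 380 of 8870 genes (4.28%) at 0.05, 184 higher and 196 lower on day 5. Of these, 354 moved the same way in both experiments, 177 in each direction. The fit had 1 residual degree of freedom and took its spread wholly from the other genes, and DESeq2 called 40 genes, all among the 380. Over the same days the C1q-rich share of members moved from 37.5% to 53.7% in the CD45+ libraries and from 28.3% to 56.3% in the pool. In C1q-rich cells alone 39 of 6588 genes (0.592%) were called, 38 of them among the 380.

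Apoe rose from 5788 to 21890 CPM in the CD45+ libraries and from 3456 to 13530 in the pool, a log2 change of 2.01 ± 0.14 (SE, adjusted p = 6.08e-44). The change was 1.57 in C1q-rich cells (adjusted p = 0.00159). Ms4a7, a membrane gene of macrophages, rose from 344 to 1101 and from 182 to 701 (log2 1.88, adjusted p = 6.47e-32, and 1.89 in C1q-rich cells, adjusted p = 0.000504). Gdf15, a stress-induced cytokine, rose from 24.1 to 182 and from 47.6 to 148 (log2 2.14, adjusted p = 3.00e-28, and 2.17 in C1q-rich cells, adjusted p = 0.00195). Igf1, a growth factor of reparative macrophages, rose from 3.15 to 50.0 and from 7.12 to 24.5 (log2 2.48, adjusted p = 1.22e-10, and 2.93 in C1q-rich cells, adjusted p = 0.00747). These 4 genes thus rose in both experiments and in the C1q-rich cells. Fcrls, a macrophage receptor, rose by 1.74 over all members (adjusted p = 4.65e-20) but had a change of 0.85 that was not called in C1q-rich cells (adjusted p = 0.407).

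The other genes that led the rise were Tmem176b (1.46), Tmem176a (1.44), Sepp1 (1.44, a selenium transporter), Ccl5 (1.43, a chemokine), Pltp (1.30, a phospholipid transfer protein) and Slamf7 (1.29). Each was also called in C1q-rich cells, with adjusted p between 0.00527 for Ccl5 and 0.0347 for Tmem176b. Spp1, which encodes osteopontin, fell from 4957 to 1456 CPM in the CD45+ libraries and from 3100 to 1464 in the pool (log2 -1.36 ± 0.14 (SE), adjusted p = 1.38e-19, and -1.38 in C1q-rich cells, adjusted p = 0.00382). Arg1, the arginine-degrading enzyme of early wound macrophages, fell from 604 to 172 and from 332 to 200 (log2 -1.18, adjusted p = 2.66e-12, but 0.277 with DESeq2). Ccnd2, a cyclin, fell by 1.23 and by 1.79 in C1q-rich cells. Areg (-1.74), F10 (-1.54), Timp1 (-1.54), Cxcl3 (-1.47), Gpr171 (-1.29), Fdps (-1.20) and Ltb4r1 (-1.11) fell over all members and were not called in C1q-rich cells.

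**Figure D3:**
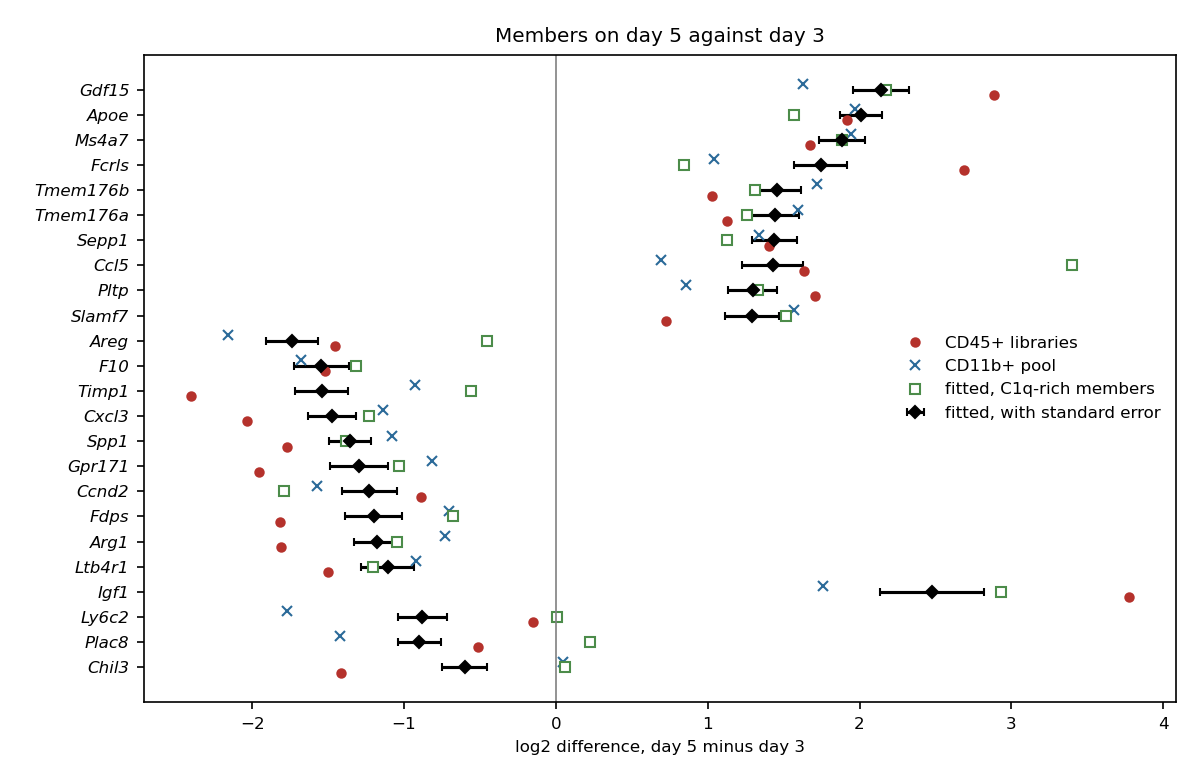
Log2 difference between day 5 and day 3 for the 20 genes named by rule and 4 others: the fitted value with its standard error (diamonds), each experiment (dots and crosses) and the fit on C1q-rich members (open squares). Apoe, Ms4a7, Gdf15, Spp1 and Igf1 lie on the same side of 0 in all, and Ly6c2, Plac8 and Chil3 lie at or above 0 in C1q-rich members.

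By gene list, 5 of 7 macrophage markers rose, among them Adgre1 (0.96), Cd14 (0.54), Csf1r (0.46) and Mertk (1.00), and none of the 7 was called in C1q-rich cells. Of 11 monocyte genes, 7 fell and none rose over all members, and none of 10 was called in C1q-rich cells. Ly6c2, a surface antigen of inflammatory monocytes, fell by 0.88 with 344 to 311 CPM in the CD45+ libraries and 226 to 66.2 in the pool, and had a value of 0.0049 in C1q-rich cells. Plac8 fell by 0.90 and had a value of 0.22 in C1q-rich cells. Chil3 was called lower, but its within-experiment values were -1.41 in the CD45+ libraries and 0.05 in the pool. DESeq2 called neither Ly6c2 nor Chil3, nor Csf1r and H2-Ab1 among the genes above. Of 12 glycolysis genes, 9 fell, among them Gapdh, Ldha and Pkm, and 3 (Eno1, Ldha and Pgk1) fell in C1q-rich cells. Of 11 MHC II genes, 5 rose (Cd74 0.54, H2-Ab1 0.43 and H2-Eb1 0.50, with Ctss and Lgmn, which process antigen and the invariant chain) and H2-DMb2 fell by 0.76. None of 8 MHC II genes was called in C1q-rich cells, where Cd74 had a value of 0.67 (adjusted p = 0.182). The list median was 0.43 over MHC II genes, against 0.01 over all genes tested.

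Of 13 type I interferon genes none was called, and of 19 lipid and repair genes 6 rose and 5 fell. Of 18 inflammatory genes 5 were called higher and 2 lower, among them Ccl3 and Ccl4 (higher) and Ccl2 and Ccl7 (lower). Of 12 proliferation genes 2 fell (Mcm5 and Mcm6). 4 of 5 fibroblast genes were called lower, but this came from the CD45+ day 3 library: Col1a1 stood at 146 and Dcn at 134 CPM there, and in the pool Col1a1 stood at 0.32 and 1.29 on days 3 and 5. All 139 Col1a1 and 128 Dcn UMIs of that library's members were in C1q-poor ones, and their part in the other day 3 values was not tested. Days 1 and 7 entered no test, since day 1 had 11 cells in the CD45+ library and day 7 was not in the pool.

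Against resident-type macrophages, members had less of the resident genes outside the rule and more monocyte genes. With the library as a block, edgeR called 455 of 6218 genes (7.32%) in the steady state and days 3, 5 and 7 together, 223 higher and 232 lower in members. The same contrast called 388 of 5410 genes (7.17%) with C1q-rich members and 1093 of 9343 (11.7%) over the 3 hashtag days of the pool. In every class contrast with C1q-rich members, the C1q line was drawn in the other class as well. That kept 409, 27, 44 and 85 resident-type cells of the steady state and days 3, 5 and 7. Both classes were cut by transcripts of the same cells, so genes correlated with the cut genes had to differ to some degree. Of 11 tested resident genes outside the rule, 10 were lower in members, and 11 of 11 with C1q-rich members. The list median was -2.31, against 0.01 over all genes tested.

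Cd163, a haemoglobin scavenger receptor, stood at 61.1, 0, 3.21 and 3.47 CPM in members of the steady state and days 3, 5 and 7, against 235, 31.4, 40.4 and 194 in resident-type cells (log2 -3.42, adjusted p = 0.00694). Fcna, a ficolin of complement, stood at 17.0, 0, 5.77 and 15.4 against 90.6, 26.7, 83.0 and 288 (adjusted p = 0.00054). Vsig4, a complement receptor, was counted 5, 0, 0 and 9 times in members and 187, 16, 23 and 254 times in resident-type cells. Gas6, which bridges dying cells to phagocytes, stood at 157, 4.20, 34.6 and 38.1 against 419, 102, 211 and 377 (log2 -2.56, adjusted p = 0.00311). Pf4, a platelet-type chemokine that resident macrophages make, stood at 1133, 442, 636 and 894 against 3219, 3585, 3055 and 3193 (log2 -2.11, adjusted p = 0.00131). Members were below resident-type cells in each of these 4 libraries, and the gap was smallest in the steady state for Cd163, Fcna, Gas6 and Pf4. Ltc4s (-3.44), Ccl8 (-2.85), Fxyd2 (-2.55) and Serpinb6a (-2.04) were lower as well, though Fxyd2 was not called in the pool (-0.63, adjusted p = 0.55).

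Ccr2, the receptor that brings monocytes out of marrow and into tissue, stood at 128, 352, 393 and 278 CPM in members and at 33.0, 105, 132 and 97.5 in resident-type cells (log2 1.73 ± 0.13 (SE), adjusted p = 0.000212). C1q-rich members gave 1.73 as well (adjusted p = 7.27e-05), but the pool gave 0.65 (adjusted p = 0.0557), with a value of -0.29 on day 1. Ly6c2 stood at 98.4, 344, 311 and 186 against 13.8, 59.6, 105 and 29.1 (log2 2.41, adjusted p = 0.000332, and 2.72 in the pool). Plac8 (2.48), Ms4a4c (1.86) and Chil3 (1.64) were higher in members, in C1q-rich members and in the pool. Vcan, a matrix proteoglycan of monocytes, was higher by 1.74 in the CD45+ libraries but stood at -0.091 in the pool. In all, 6 of 10 monocyte genes were higher, 5 of 9 with C1q-rich members (S100a4 lower) and 5 of 11 in the pool (Fn1 lower). Without day 7 Chil3 and Vcan were not called, and without day 5 Vcan was not.

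Il1b, the inflammasome cytokine, stood at 5948, 4413, 4135 and 5303 CPM in members and at 4090, 1831, 1299 and 2515 in resident-type cells (log2 1.17 ± 0.16 (SE), adjusted p = 0.00301). It was higher in each library, with C1q-rich members (1.31, adjusted p = 2.65e-05) and in the pool (1.42, adjusted p = 3.06e-05). Ccl7, a monocyte attractant, was lower (log2 -1.52, adjusted p = 0.000974), as was Ccl2 (-1.14, adjusted p = 0.0459), which DESeq2 did not call. Of 18 inflammatory genes 2 were higher and 2 lower. Of 19 lipid and repair genes 7 were lower, among them Apoe, Trem2 and Hmox1, and Vegfa was higher. With C1q-rich members Apoe and Trem2 were not called. Without day 5 neither of them was called, without day 3 Apoe and Vegfa were not, and without day 7 Vegfa was not. Napsa, an aspartic protease (2.13), Tspan13 (1.90), Ifitm1 (2.43) and Il1r2, a decoy receptor for interleukin 1 (1.90), were higher, while Ccl5 (2.20) was called over all members and not with C1q-rich members (0.94, adjusted p = 0.0724). Without day 7 Ccl5 and Il1r2 were not called.

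Sparc (3.18), Serpinh1 (2.95) and Igfbp7 (2.74), genes of fibroblasts and vessel cells, led the rise in members but were too low for the test in C1q-rich members. Serpinh1 stood at 734 and 398 CPM in C1q-poor members of the steady state and day 3 and at 16.2 and 0 in C1q-rich ones. Saa3, an acute phase gene, was lower (-2.86), with 1 UMI in members and 5 in resident-type cells of the steady state. Of 11 MHC II genes, H2-DMa (1.26) and H2-DMb1 (1.84) were called, and were not called without day 5 or without day 7, while Cd74 missed the threshold with a log2 of 2.23 (adjusted p = 0.0518). With C1q-rich members 7 of 8 were called higher, and in the pool 10 of 11 were, with Lgmn lower. Members needed at least 5 H2-Aa UMIs, while resident-type cells could hold any number. MHC II genes move with H2-Aa, so these MHC II values are a description and no separate result. In the pool 10 of 12 proliferation genes were lower in members than in resident-type cells, among them Mki67 and Top2a, and 0 of 12 were called in the CD45+ libraries by edgeR, where the list median was -0.58.

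**Figure D4:**
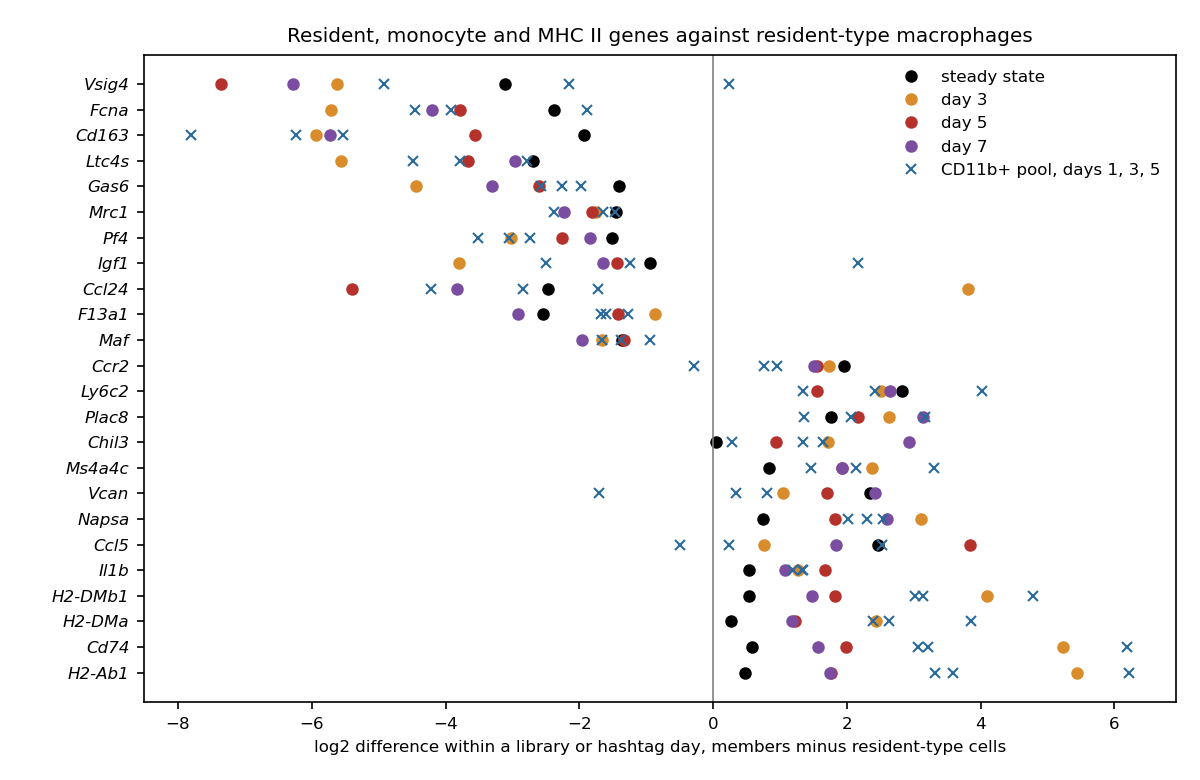
Log2 difference between members and resident-type cells within each CD45+ library (dots) and each hashtag day of the CD11b+ pool (crosses) for resident, monocyte and MHC II genes. Members lay below resident-type cells for Fcna, Cd163, Ltc4s, Gas6, Mrc1, Pf4, F13a1 and Maf in all 7 comparisons, and the differences in MHC II genes were smallest in the steady state and largest on day 3 and pool day 1.

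Against MHC II-low cells fewer genes differed. edgeR called 65 of 6991 genes (0.93%), 29 higher and 36 lower in members, 257 of 9176 (2.8%) in the pool, and 81 of 5827 (1.39%) with C1q-rich members on days 3, 5 and 7. In the last of these the MHC II-low cells were held to the C1q line too. That left 60 of 239, 105 of 230 and 36 of 160 MHC II-low cells on those days. H2-Eb1 (4.75), H2-Ab1 (4.13), Cd74 (4.12), H2-DMb1 (3.17) and H2-DMa (2.22) moved with H2-Aa, which set the classes apart, and are given as a description. Mgl2, a C-type lectin of MHC II-high macrophages and dendritic cells, stood at 534, 46.2, 39.7 and 46.6 CPM in members and at 151, 2.25, 5.28 and 14.6 in MHC II-low cells (log2 2.56 ± 0.37 (SE), adjusted p = 0.0198, and 2.39 with C1q-rich members, adjusted p = 0.0431). Axl, a receptor for Gas6, stood at 154, 61.9, 96.8 and 82.0 against 52.9, 15.8, 32.2 and 19.1 (log2 1.83, adjusted p = 0.00269, and 1.62 with C1q-rich members, adjusted p = 0.000663). Both genes were higher in members in each of the 4 libraries and each hashtag day. Without day 5 or without day 7 the call for Mgl2 was lost, with adjusted p up to 0.0991.

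Tmem176a (1.53) and Plbd1 (1.57) were higher in members, and both were called with C1q-rich members and in the pool. Plbd1 was not called without day 3, day 5 or day 7 in turn. Batf3, a transcription factor of dendritic cells (1.88), and Ifi205 (1.57) were called over all members and in the pool but not with C1q-rich members, nor without day 5 or without day 7. Of 11 monocyte genes 1 was lower (Hp). With both classes cut to C1q-rich cells, 4 of 9 were higher in members (Ccr2 0.95, Ly6c2 1.19, Ms4a4c 1.01 and Plac8 1.13). The comparison class differs between these 2 counts. Of 7 macrophage genes none was called, and of 18 inflammatory genes none was called in the CD45+ libraries, while 8 were lower in members of the pool, among them Tnf, Il6 and Ccl2.

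Of the 36 genes lower in members, those with the lowest values included genes of NK and T cells. All 4 tested NK genes and 3 of 4 T cell genes were lower, as were Hp of the monocyte list and Cxcr2 of the neutrophil list. Gzma, a cytotoxic granule protease, stood at 38.4, 0, 9.61 and 38.5 CPM in members of the steady state and days 3, 5 and 7 and at 1510, 0.376, 184 and 668 in MHC II-low cells. Il2rb, Ctsw, Nkg7, Xcl1, Txk, Cd3g, Gimap3, Gimap1 and Lck made up the rest of the 10 lowest, and without day 7 all of these but Ctsw and Nkg7 lost their call. Against resident-type cells, by contrast, Nkg7 was higher in members. MHC II-low cells had a median of 25.3 C1q UMIs per 10000 in the steady state and 15.3 on day 7, close to the lymphocyte barcodes given above, and the part of such barcodes in these differences was not tested.

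Set against the steady state, members of each day after infarction differed by more than 2-fold in many genes, with 1 library per time point and no test. Of 1109 genes compared on day 1, 17.7% were at least 2-fold higher and 29% at least 2-fold lower. The shares were 24.3% and 10.6% of 1610 genes on day 3, 18.7% and 10.1% of 1531 on day 5, and 9.49% and 8.57% of 1423 on day 7. Saa3 was counted 1 time in the steady state and stood at 6829, 1994, 1750 and 142 CPM on days 1, 3, 5 and 7. Its log2 ratio to the steady state was 11.98 on day 1, with a counting interval of 10.08 to 17.87. Spp1 stood at 11.3 CPM in the steady state and at 157, 4957, 1456 and 1551 afterwards. Both were also high in C1q-rich members, where Saa3 stood at 4164 on day 3 and Spp1 at 4314.

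Chil3, a chitinase-like monocyte gene, stood at 9.04 CPM in the steady state and at 314, 1247, 468 and 390 on days 1, 3, 5 and 7. Cxcl3 stood at 3.39 in the steady state, 5959 on day 1 and 350 on day 3, and Timp1 at 3.39 and 266 on day 3. On day 1 Csf3 (98 UMIs) and Serpinb2 (34 UMIs) had none in the steady state, which makes them at least 349-fold and 121-fold higher against 3 UMIs in that library. Lcn2 was counted 68 times on day 1 and 1 time in the steady state. On day 5 Ctsk (122 against 2.26) and Ass1 (178 against 6.78) joined the leading genes, but Ctsk stood at 12.2 in C1q-rich members. On day 7 Ngp (582), Camp (384) and Cma1 (106), genes of neutrophils and mast cells, led with Spp1 and Saa3, and stood at 23.7, 12.6 and 6.67 in C1q-rich members.

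Retnla, a secreted resistin-like protein, stood at 597 CPM in the steady state and was counted 1, 0, 1 and 5 times on days 1, 3, 5 and 7. On day 3 it was at least 190-fold lower against 3 UMIs. C1q-rich members held 320 of the 528 Retnla UMIs of the steady state and 0, 0 and 2 on days 3, 5 and 7. Mgl2 stood at 534 in the steady state and at between 24.2 and 46.6 after infarction. Pld4 had 323 UMIs in the steady state and none on day 1. Dcn, Gsn, Igfbp7, Mgp, Clec3b, Ccdc80 and Lum, genes of fibroblasts and mural cells, were among the lowest after infarction, but 15 of 1176 Dcn UMIs of the steady state were in C1q-rich members. Aqp1, Sparcl1, Gpihbp1 (vessel genes), Myl2, Myl3 (cardiomyocyte genes) and Xcl1 (a lymphocyte gene) were also among them. Cardiomyocyte markers summed to 592 CPM in steady-state members, and to between 5.25 and 36.3 after infarction.

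By list, monocyte genes were at least 2-fold higher in 9 of 9 on day 3, 7 of 8 on day 5 and 6 of 7 on day 7, with list medians of 3.77, 2.78 and 2.33. Type I interferon genes were higher in 9 of 10 on day 1, 6 of 7 on day 3, 7 of 7 on day 5 and 2 of 4 on day 7. Glycolysis genes were higher in 8 of 8 on day 3, 6 of 7 on day 5 and 2 of 7 on day 7. Immediate early and heat shock genes, which tissue digestion is known to raise, were at least 2-fold lower in 10 of 12 on days 3 and 5 and in 8 of 12 on day 7. MHC II genes were higher in 0 and lower in 5 of 8 on day 1, higher in 2 and lower in 1 of 8 on day 3, higher in 3 and lower in 0 of 8 on day 5, and higher in 2 and lower in 1 of 9 on day 7. In C1q-rich members 2 were higher and 5 lower on day 7. In C1q-rich members the monocyte count was 9 of 9 on day 3, and the immediate early count was 10 of 12 on day 3.

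Surface protein in the CD11b+ pool was not used by the rule. The IA/IE antibody, which binds MHC II at the surface, had a median of 180 UMIs per cell in members of day 1, 181 on day 3 and 251.5 on day 5. Resident-type cells had medians of 76.5, 100.5 and 92.0, and MHC II-low cells 66.0, 73.5 and 73.0. The lower quartile of members on day 5, 144.75, lay above the upper quartile of resident-type cells, 125.5, and on days 1 and 3 the quartiles overlapped. C1q-rich members had 197.5, 181.5 and 289, and C1q-poor members 120.5, 172.5 and 220. Median surface MHC II was thus higher in members than in resident-type and MHC II-low cells on each day. The H2-Aa transcript of members was high by the rule, so it is no separate result. All other kept cells of the pool had 61.0, 66.0 and 94.0. There is 1 pool, so no test was made.

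Most other antibodies had lower medians in members than in resident-type cells. CD64, an Fc receptor of macrophages, had medians of 31.0, 32.5 and 35.0 in members and 62.5, 63.0 and 57.0 in resident-type cells. Cx3cr1 had 49.5, 50.0 and 50.0 against 82.0, 70.0 and 76.0, and MSR1, a scavenger receptor, 24.0, 23.5 and 22.0 against 49.0, 37.0 and 32.0. F4/80 had 65.5, 57.5 and 56.0 against 91.5, 72.5 and 68.0. The Ccr2 antibody had 44.0, 42.0 and 44.0 against 56.5, 48.5 and 45.0. The Ccr2 transcript stood at 441 and 545 CPM in pool members of days 3 and 5 and at 228 and 321 in resident-type cells. On pool day 1 the transcript was lower in members, and its difference over the pool days was not called. Ly6G, an antigen of neutrophils, was lower in members too, with 107, 108.5 and 101 against 140.5, 119 and 112. TIM4 had 28.0, 27.0 and 27.0 against 35.5, 29.0 and 31.0. Whether members bound less antibody in general was not tested. Cd11c had 47.0, 58.0 and 46.0 against 67.5, 53.5 and 47.0, so members were higher on day 3. Ly6C had 103.5, 75.5 and 80.5 in all members against 107, 71.0 and 80.0 in resident-type cells. By C1q it had medians of 103.5, 94.5 and 132 in C1q-poor members and 92.0, 60.5 and 67.0 in C1q-rich members. The quartiles of all classes overlapped for Ly6C.

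**Figure D5:**
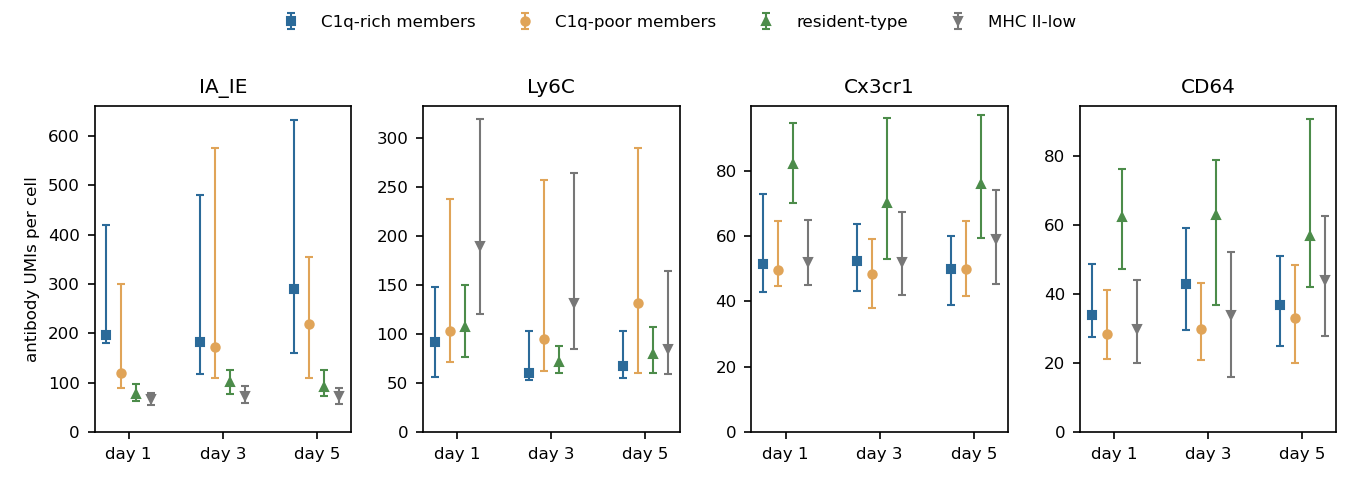
Median antibody UMIs per cell with the lower and upper quartile as bars, for 4 of the 10 antibodies, by class and hashtag day of the CD11b+ pool. Both kinds of members lay above resident-type and MHC II-low cells for IA/IE and below resident-type cells for Cx3cr1 and CD64.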

How the data were processed

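The authors deposited filtered UMI count matrices, 1 per library, on mm10 per the submitters' processing notes. Cell Ranger 3.0.2 made the CD11b+ pool's matrix, per its file headers; the version behind the CD45+ libraries is not given in the sources used here. Members and gene lists were chosen with earlier results of these data known. Hashtag days came from 2-part Gaussian mixtures (4263 of 4835 pool cells with 1 hashtag, 5.98% with several). UMI counts were summed per class and library and tested with edgeR 4.0.16 (quasi-likelihood, Benjamini-Hochberg threshold 0.05), with the library or experiment as a block, and with DESeq2 1.42.0 as an alternative. The code was tested on simulated data. The day contrast had an infinite prior degrees of freedom, so it used no gene-specific spread. Sums of fewer than 20 cells, as on day 1, entered no CD45+ test. Named genes were the 10 highest and 10 lowest log2 values among called genes with a mean of at least 50 CPM, moving the same way in both experiments for the day contrast. Against the steady state they were the 5 highest and 5 lowest ratios among genes with at least 100 CPM and 20 UMIs. Rule genes and mitochondrial, ribosomal, haemoglobin and unnamed genes were left out, and members of the lists could be named. The C1q-rich split was chosen after seeing the data. Intervals are exact at 95% and cover counting error only. 1 gene of the lists is not reported here.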

Additional observations from a re-analysis of the deposited data

Results flagged for a closer look

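The matrix that pools blood and heart cells was used in no comparison above. The same rule found 100 cells there, and 22 of them were C1q-rich; its hashtags were not mapped to groups. Lat, a T cell signalling adaptor, was lower in members than in MHC II-low cells in the CD45+ libraries (log2 -3.12) in each of the 4 libraries, and the call was lost without day 7. It was listed because its pool values, with a small count added to both sides, had the opposite sign. The pool held too few Lat UMIs to give a direction: 0, 2 and 4 in members and 0, 5 and 4 in MHC II-low cells on days 1, 3 and 5. The difference between the experiments was not tested.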

How the results depend on the processing

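As a share of cells past the C1q cut, members of the steady state made up 16.5% with H2-Aa of at least 10 UMIs, 6.22% with no resident UMI and 42.0% with cells thinned to 2000 UMIs. Day 3 gave 10.98% when thinned, day 5 18.3% with no resident UMI, and day 7 13.1% with H2-Aa of at least 10 and 11.3% with no resident UMI. C1q-rich members made up 20.3% of C1q-rich cells on day 5 and 28.6% on day 7. The 380 calls between day 5 and day 3 became 40 with DESeq2, 204 with H2-Aa of at least 10, 39 in C1q-rich cells and 209 without day 1 of the pool; leaving out another sum left no residual degrees of freedom. Without the replicate block (the experiment) 0 genes were called, with 86 at an unadjusted p under 0.05. The 455 calls against resident-type cells became 1031 with no filter, 0 without the replicate block (the library; 625 at an unadjusted p under 0.05) and 1093 in the pool days, and 103 (without day 7) to 540 (without the steady state) with 1 library left out, 198 without day 5. The 65 calls against MHC II-low cells became 130 with DESeq2, 424 with no filter, 4 without the replicate block, 162 when thinned, 257 in the pool days, and 21 (without day 7) to 103 (without the steady state) with 1 library left out, 37 without day 5. Signs turned for Ly6c2 (0.0049), Plac8 (0.22) and Chil3 (0.061) in C1q-rich cells, for Cxcl10 (-0.31) with H2-Aa of at least 10 and for Vcan (-0.091) in the pool days. The causes were not tested. Not run were thinned resident-type classes (too few cells), day 1 contrasts and C1q-rich class contrasts in the pool. Depth limits the day 1 values and the fixed UMI cuts, since cells differ in depth between libraries.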
